A study of Mus musculus with 2 samples.

Results

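The T cell receptor gene segments were taken as the probe sets whose single gene symbol names a V, J or C segment of the α, β, γ or δ receptor locus. This rule found 10 probe sets for 9 genes among the 19938 genes named by the table's 21789 probe sets with 1 symbol (35557 probe sets in all). All 10 report V segments, 7 of them from the α locus (6 genes) and 1 each from the β, γ and δ loci. The values are log2 signals from 2 arrays of RNA from live CD3+CD4+ T cells, sorted from pancreatic lymph nodes (PLN) 48 hours after antibody treatment of BDC mice. BDC mice are NOD mice that carry both rearranged receptor chains of a diabetogenic CD4+ T cell clone as transgenes, Tg(TcraBDC2.5)1Doi and Tg(TcrbBDC2.5)2Doi in the study's methods, and both groups share them. The labels, which write the clone's number differently, give an age of 8 weeks. One array holds T cells of mice given the nondepleting anti-CD4 antibody YTS177 (ND αCD4), for which the sample's own label states no amount, and the other holds T cells of mice given 1 mg of the isotype control Ab 2A3. The lymph nodes of several mice were pooled for the sort, and with a single array for each treatment no difference could be checked against replicates and no test was run.

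A T cell receptor gene is assembled in the thymus, where a V segment is joined to a J segment (in the β and δ loci with a D segment between them) and spliced to a constant region. Most T cells carry an α- and a β-chain, and a smaller lineage carries a γ- and a δ-chain. A rearranged β transgene largely stops further rearrangement at the endogenous β locus, while exclusion at the α locus is incomplete, so that T cells of a receptor transgenic mouse that can still recombine its genes may carry endogenous α-chains. The BDC β-chain is known to use the V segment *Trbv2*, which is the neighbour of *Trbv1* in the RefSeq order of mouse segments and is named by no probe set used here.

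The segments measured are a small part of those that the RefSeq table of GRCm38.p6 lists. Of 266 segment genes in that table, 9 had a probe set of their own, 18 were named only together with other segments, and 239 were named by no probe set of the annotation. None of the 80 J segments and none of the 8 constant regions was named. *Trac*, *Trbc1* and *Trbc2*, the constant regions of the chains that all αβ T cells transcribe, are therefore not analysed here. All 9 genes matched the RefSeq table by gene identifier. The 6 α segments and the δ segment lie on chromosome 14, *Trbv1* on chromosome 6 and *Trgv1* on chromosome 13. RefSeq describes C57BL/6J mice, and how well the probes match the segments of NOD mice was not examined. Where the probes of each set lie within a receptor transcript was not examined either.

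Background was set by the olfactory receptor genes, which T cells are not known to use. The 95th percentile of 1035 olfactory receptor probe sets was 7.62 in the ND αCD4 array and 7.66 in the isotype control array. Of the 10 segment probe sets, 8 exceeded it in both arrays and 2 in neither, so 7 of 9 genes were above background. Over all probe sets with 1 symbol, 65.3% were above background in at least 1 array and 63% in both, so the share among the segments is read as a description of which ones had signal, not as a property of the family. The probe sets above background were *Trav13-5*, both for *Trav14-1*, *Trav19*, *Trav7n-5*, *Trbv1*, *Trdv2-2* and *Trgv1*. *Trav12-2* and *Trav7d-4* were below it. Each probe set has its own probes, so the signals of different segments were not ranked against each other.

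**Figure D1:**
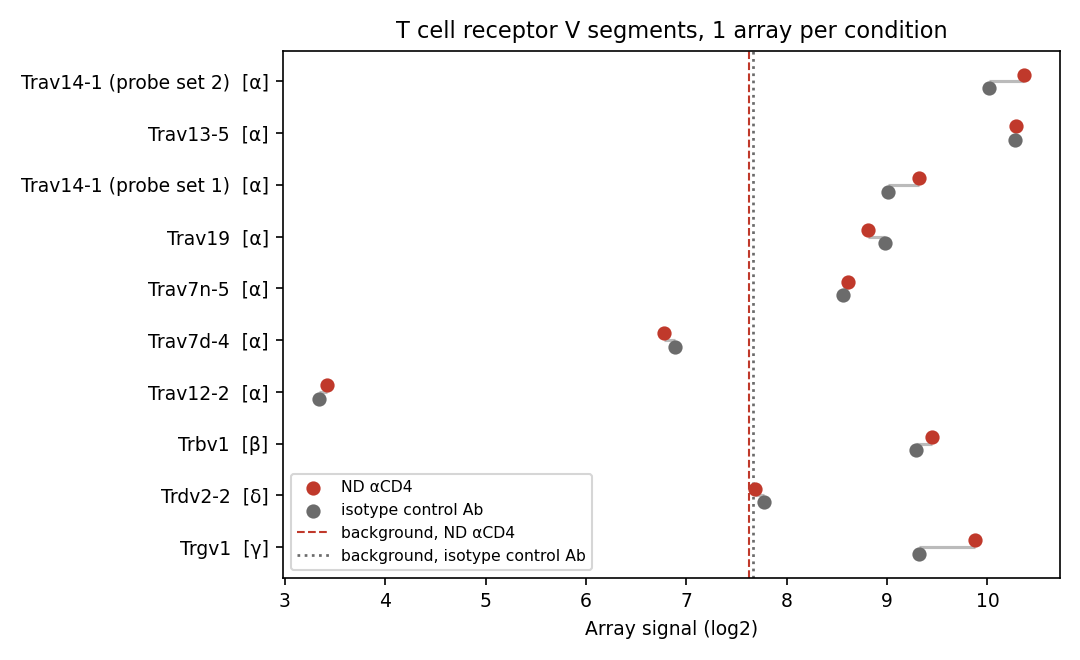
Array signal (log2, horizontal axis) of the 10 V segment probe sets in the ND αCD4 array (red) and the isotype control array (gray), 1 point per array, with the locus in brackets and the background of each array as a vertical line. *Trav12-2*, at 3.42 and 3.34, and *Trav7d-4*, at 6.78 and 6.88, lie left of both lines, and *Trdv2-2* lies just right of them.

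Among the α V segments, which encode the part of the α-chain that contacts peptide and MHC, *Trav13-5* had a signal of 10.28 in the ND αCD4 array and 10.28 in the isotype control array, a log2 ratio of 0.0043. No olfactory receptor probe set was higher in the ND αCD4 array and 1 was higher in the isotype control array. The first probe set of *Trav14-1* had 9.32 in the ND αCD4 array and 9.01 in the isotype control array, and the second had 10.37 and 10.01. Both probe sets were thus above background and had a higher signal after ND αCD4. *Trav19* had 8.82 in the ND αCD4 array and 8.98 in the isotype control array. *Trav7n-5* had 8.61 in the ND αCD4 array and 8.56 in the isotype control array, with 9 and 10 of the 1035 olfactory receptor probe sets above it.

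*Trav7d-4*, of the same V family as *Trav7n-5*, had 6.78 in the ND αCD4 array and 6.88 in the isotype control array, within the range of the olfactory receptors, of which 230 and 208 were higher. *Trav12-2* had 3.42 in the ND αCD4 array and 3.34 in the isotype control array, a signal below that of nearly every olfactory receptor (1023 and 1030 of 1035 were higher). No fold is given for these 2 segments, as both arrays were below background. In the RefSeq order of the locus, *Trav12-2* is separated from *Trav14-1*, which was above background, by 5 other segments.

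Both segments below background were also named by probe sets with several symbols, and these were above background. For *Trav12-2*, 4 probe sets list its transcript records together with those of related segments, with only 2 distinct pairs of values. Their signals were 8.70 and 9.73 in the ND αCD4 array, against 8.68 and 9.70 in the isotype control array. For *Trav7d-4*, 1 such probe set had 8.76 in the ND αCD4 array and 8.71 in the isotype control array. A signal below background in these 2 probe sets is therefore not read as absence of the segment. In all, 4 of the 10 segment probe sets shared transcript records with a probe set of several symbols. Besides these 2, they were *Trav13-5*, by its only record, and the first probe set of *Trav14-1*, by 2 of its 3 records. Their signals above background are likewise not read as specific to the named segment.

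*Trbv1*, a β V segment, was above background with 9.44 in the ND αCD4 array and 9.29 in the isotype control array, although the transgenic β-chain uses another segment. Only 3 olfactory receptor probe sets were higher in either array. The 1 β probe set with several symbols lists *Trbv13-2* beside *Trbv1*, so its signal cannot be assigned to *Trbv1*. It had 9.59 in the ND αCD4 array and 9.57 in the isotype control array. The arrays hold no control of T cells with a polyclonal receptor, so these signals could not be set against those of such cells.

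The remaining segments belong to the loci of γδ T cells. *Trdv2-2*, a δ V segment, was the closest to background of the 8, with 7.69 in the ND αCD4 array and 7.78 in the isotype control array, which is 0.064 and 0.11 above it, and 49 and 38 olfactory receptor probe sets were higher. It fell below the stricter 99th percentile of the olfactory receptors, at 8.41 in the ND αCD4 array and 8.43 in the isotype control array. *Trgv1*, a γ V segment, was well above background, with 9.88 in the ND αCD4 array and 9.32 in the isotype control array. In the ND αCD4 array 2 olfactory receptor probe sets were higher than *Trgv1*, and 3 in the isotype control array.

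**Figure D2:**
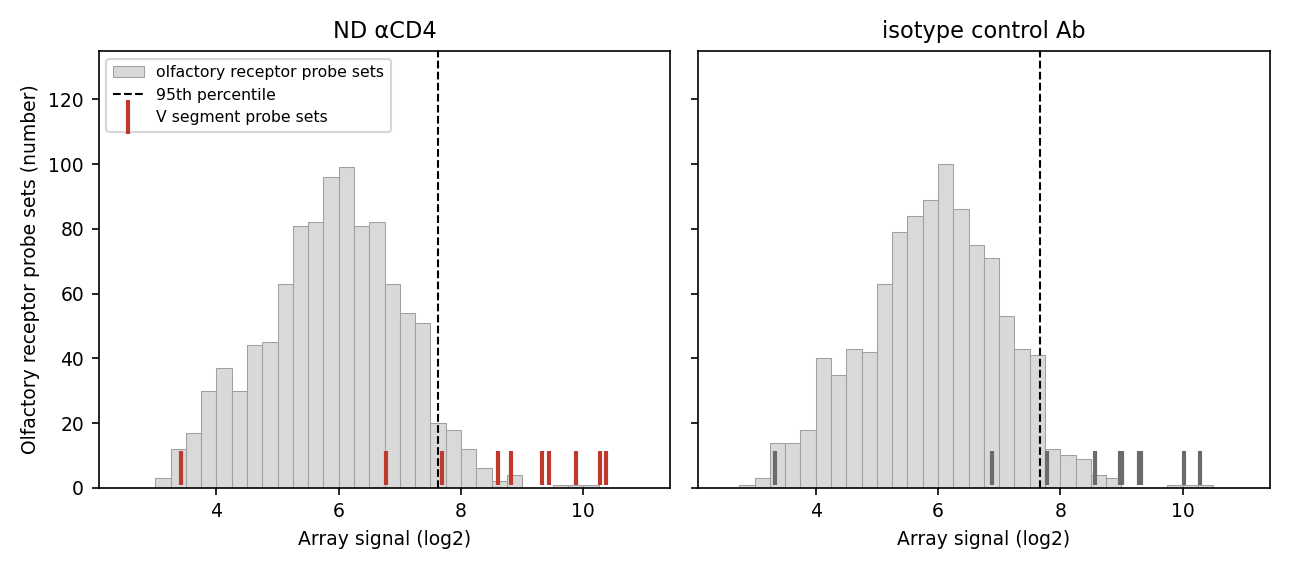
Number of olfactory receptor probe sets (gray bars, vertical axis) by array signal (log2, horizontal axis) in the ND αCD4 array (left) and the isotype control array (right), with their 95th percentile as a dashed line and the 10 V segment probe sets as short vertical strokes, whose height carries no meaning. In each array 8 strokes lie right of the dashed line and 2 lie left of it.

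None of the 8 segment probe sets above background differed between the arrays by 1.5-fold or more. Among all 14226 probe sets above background, 0.197% were at least 1.5-fold higher after ND αCD4, 1.02% were at least 1.5-fold lower, and 1.22% passed in either direction, so a count of 0 among 8 is near what the whole table gives. The median log2 ratio of the 8 was 0.11, beside -0.011 over all probe sets above background, with 6 above 0 and 2 below 0. The 5th and 95th percentiles of all these log2 ratios were -0.29 and 0.21. Of the segments, 5 probe sets lay between them and 3 above the 95th, namely *Trgv1* and both probe sets of *Trav14-1*.

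*Trgv1* had the largest log2 ratio, at 0.56, or 1.47-fold higher after ND αCD4, just short of the size rule. The probe sets of *Trav14-1* had log2 ratios of 0.30 and 0.35 (1.24-fold and 1.28-fold higher). They differed by 0.050. The SD of a single probe set's log2 ratio within a gene was 0.093, over the 543 genes with exactly 2 probe sets above background. That SD covers differences between probe sets on the same arrays, not differences between mice. *Trbv1* had a log2 ratio of 0.16 and *Trav7n-5* of 0.052. The lowest log2 ratios were those of *Trav19*, at -0.16 (1.12-fold lower), and *Trdv2-2*, at -0.089.

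**Figure D3:**
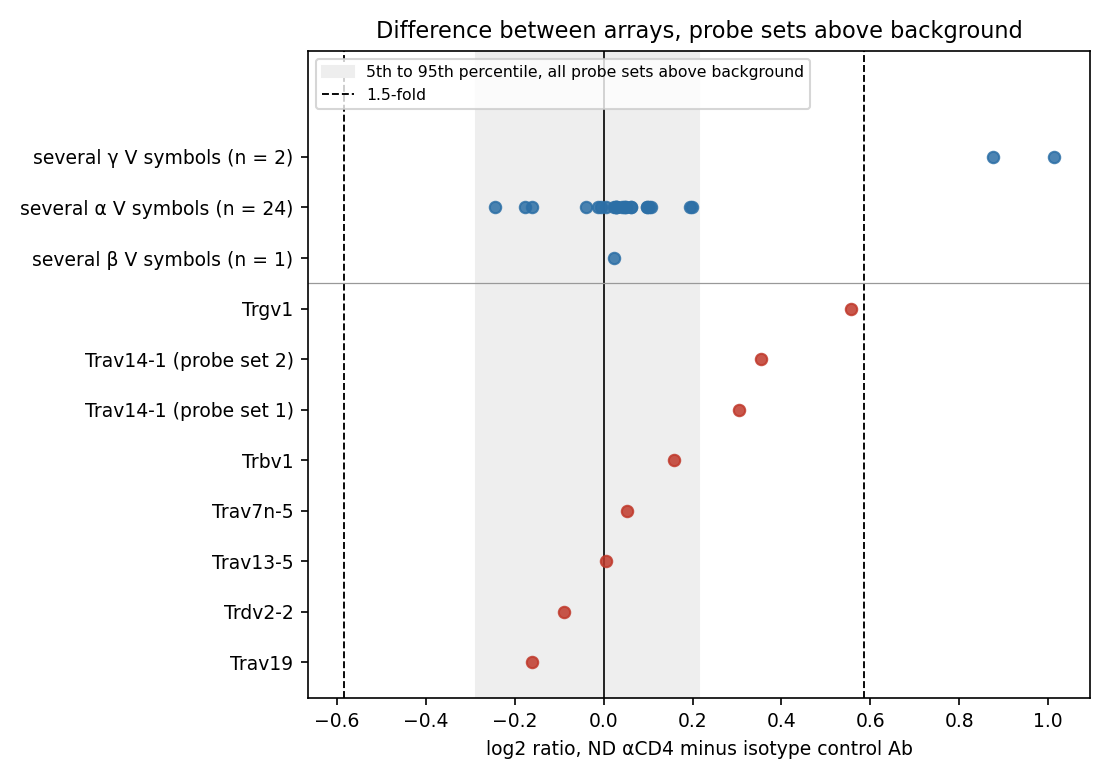
Log2 ratio (ND αCD4 minus isotype control Ab, horizontal axis) of each V segment probe set above background (red) and of the distinct probe sets above background that list several segments (blue), with 1.5-fold as dashed lines and the 5th to 95th percentile of all probe sets above background in gray. *Trgv1* is at 0.56, both blue points of the γ locus are right of the 1.5-fold line, and the blue points of the α and β loci lie within the gray range.

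Probe sets that list several segments are not members, since no single segment can be named from them, but they show the same loci. There were 42, all of whose symbols were receptor segments, with up to 5 symbols each. Many of them reported identical values in both arrays, which left 31 distinct pairs of values, 27 from the α locus, 1 from the β locus and 3 from the γ locus. Above background in both arrays were 24 of the 27 for α, the 1 for β and 2 of the 3 for γ. The α probe sets above background had log2 ratios between -0.25 and 0.20, and none reached 1.5-fold.

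The largest log2 ratios among these probe sets were those of the γ locus. The 2 γ probe sets above background had signals of 11.22 and 10.35 in the ND αCD4 array, against 10.20 and 9.48 in the isotype control array. Their log2 ratios were 1.01 and 0.88, so they were 2.02-fold and 1.84-fold higher after ND αCD4. They share 9 of the 10 transcript records that they list between them and are not independent of each other. The third γ probe set was below background in both arrays (5.76 after ND αCD4 and 5.30 after isotype control Ab). With *Trgv1*, all 3 γ probe sets above background had a higher signal after ND αCD4. *Trdv2-2*, the only segment with a Trdv symbol that was measured, had a log2 ratio of -0.089. Some of the α probe sets with several symbols also list V segments whose names mark them as shared with the δ locus, *Trav14d-3-dv8* and *Trav16d-dv11*. These probe sets had log2 ratios of 0.024 to 0.20. Those that list *Trav16d-dv11* also list *Trav7d-6*, of the same V family as *Trav7n-5*. Their signal was 12.69 in the ND αCD4 array and 12.67 in the isotype control array, the highest of the probe sets with several symbols. Which V segment the transgenic α-chain uses was not established here. Signal of the transgene and of endogenous α-chains could therefore not be told apart in any α probe set.

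The Trav14 family was looked at further after its values were seen. Besides *Trav14-1*, 2 distinct probe sets with several symbols list a Trav14 segment, 1 of them *Trav14-1* itself. Their signals were 9.52 and 10.94 in the ND αCD4 array, against 9.32 and 10.74 in the isotype control array. Their log2 ratios were 0.19 and 0.20. Both also list *Trav3n-3* and *Trav3-3*, so no single family can be named from them. A Trav3 segment was listed by 29 of the 38 α probe sets with several symbols. The other 22 distinct α probe sets above background had log2 ratios from -0.25 to 0.11, with a median of 0.030. As the Trav14 family was picked for its values, its place above the others is a description only.

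All 8 markers of CD4 T cells were above background in both arrays, with log2 ratios between -0.091 and 0.14. Among them were the CD3 chains that carry every T cell receptor to the surface, with *Cd3e* at 13.78 in the ND αCD4 array and 13.76 in the isotype control array, and *Cd247* at 11.87 and 11.82. *Cd4* had 13.48 in the ND αCD4 array and 13.38 in the isotype control array. The signal chains of the receptor were thus nearly equal in both arrays while the γ probe sets were not. In sorted bulk cells, more cells that carry a transcript and more transcript per cell cannot be told apart. ND αCD4 also binds CD4, a marker of the sort gate, and the paper reports that the treatment internalizes CD4. Whether the gate admitted the same cells in both arrays was not tested.

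Markers of other T cells were measured beside the γ segments. All 3 CD8 T cell markers were above background in both arrays although the gate selected CD4+ cells, and all had log2 ratios above 0, with *Cd8a* at 0.72 (10.39 in the ND αCD4 array and 9.67 in the isotype control array), *Cd8b1* at 0.45 and *Runx3* at 0.21. The summed linear signal of these 3 was 6942 in the ND αCD4 array and 5171 in the isotype control array. Of 5 γδ T cell markers, 4 were measured and all 4 were above background, with log2 ratios between 0.0061 and 0.079. *Sox13*, a transcription factor of γδ T cells, had 9.03 in the ND αCD4 array and 8.95 in the isotype control array. *Blk*, a kinase of γδ T cells and B cells, had 7.81 in both. *Blk* and *Cd163l1* (8.19 and 8.13) were below the 99th percentile of the olfactory receptors in both arrays. The summed signal of the γδ markers was 2613 in the ND αCD4 array and 2555 in the isotype control array, most of it from *Maf* (10.62 and 10.60), which CD4 T cells also express. Of 3 markers of invariant NKT cells, *Klrb1c* was below background in both arrays, and *Il2rb* and *Zbtb16* had log2 ratios of -0.27 and -0.076. The summed signal of the 3 was 4333 in the ND αCD4 array and 5157 in the isotype control array. Most of it came from *Il2rb* (11.96 and 12.23). *Zbtb16* (7.95 and 8.03) was below the 99th percentile of the olfactory receptors in both arrays. Of the NK cell markers, *Ncr1* and again *Klrb1c* were below background in both arrays, and *Eomes* had a log2 ratio of -0.31. *Klrd1* exceeded background only in the ND αCD4 array, at least 1.44-fold higher. Its signal there, 8.19, was below the 99th percentile of the olfactory receptors. The summed signal of all 4 NK markers was 3248 in the ND αCD4 array and 3697 in the isotype control array and was carried by *Eomes*, the only one of them with a log2 ratio below 0. The part of CD8 T cells, γδ T cells, NKT cells or NK cells in the γ and Trav14 differences was not tested.

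The genes of segment joining went both ways in detection. *Rag1* and *Rag2*, which encode the recombinase that joins segments, were below background in both arrays, with 7.26 and 5.53 in the ND αCD4 array and 7.19 and 5.26 in the isotype control array. *Ptcra*, the partner of the β-chain in immature thymocytes, was 0.12 higher on the log2 scale after ND αCD4, at 8.11 in the ND αCD4 array and 7.99 in the isotype control array. *Dntt*, the terminal transferase that adds bases at the joints, exceeded background only in the ND αCD4 array (8.88, against 7.65 in the isotype control array) and was at least 2.33-fold higher. Of the 11 genes listed for the receptor complex and recombination, 10 were measured and 8 were above background, 6 with a log2 ratio above 0 and 2 below 0. Whether recently formed T cells had a part in the segment differences was not tested.

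**Figure D4:**
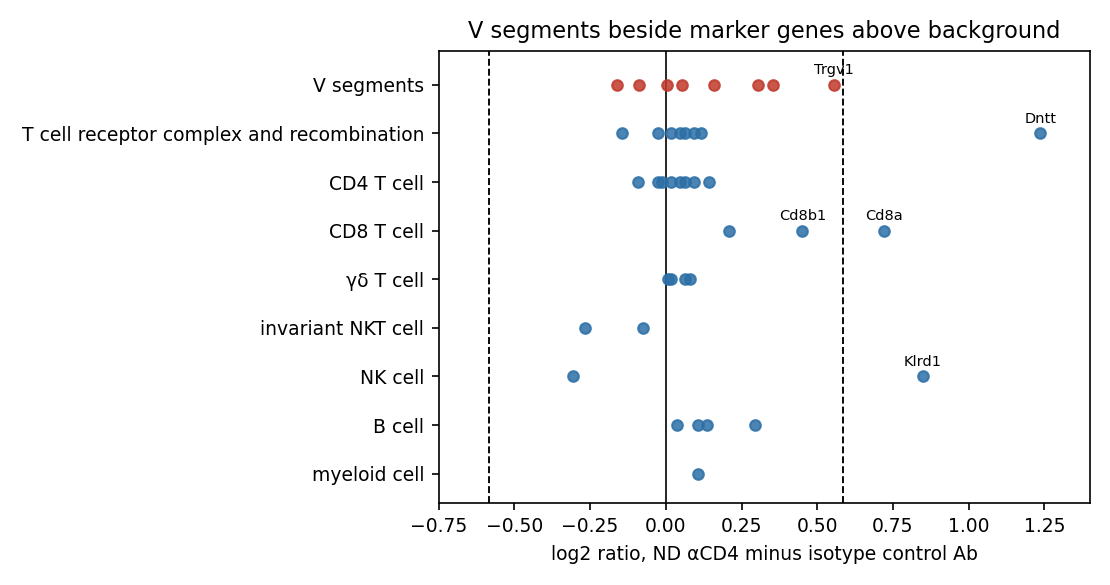
Log2 ratio (ND αCD4 minus isotype control Ab, horizontal axis) of the V segment probe sets above background (red) and of listed marker genes above background in at least 1 array (blue), 1 point per probe set or gene as measured, with 1.5-fold as dashed lines. *Cd8a* is at 0.72 and the 4 γδ T cell markers lie between 0.0061 and 0.079. The value of *Dntt* and of *Klrd1* includes an isotype control signal below background.

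The antigen receptor genes of B cells gave a comparison of short V segments that T cells are not known to express as proteins. Of 9 probe sets for immunoglobulin V segments, 2 were above background in both arrays, both of them for the same κ light chain V gene, against 8 of 10 for the T cell receptor segments. The values of the 9 ran from 5.29 to 7.96 in the ND αCD4 array and from 5.01 to 7.93 in the isotype control array. Of 6 probe sets for immunoglobulin constant regions, 2 were above background in both arrays, the brightest being one of *Ighm* at 8.26 in the ND αCD4 array and 8.44 in the isotype control array. B cell markers were not all absent, since 3 of 5 measured were above background in both arrays. *Cd79b* had 10.44 in the ND αCD4 array and 10.34 in the isotype control array. *Ms4a1* (7.81 and 7.68) and *Pax5* (8.08 and 8.04) were below the 99th percentile of the olfactory receptors in both arrays. With these few probe sets the difference between the families was not tested.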

How the data were processed

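RNA of sorted CD3+CD4+ PLN T cells was measured on 1 Affymetrix array per condition, with lymph nodes pooled before the sort. The authors deposited 1 log2 signal per probe set and array. Affymetrix Expression Console is named in the submitters' processing notes, and for its version, background correction and normalization the sources used here give nothing. The log2 scale was inferred from the spread of values (2.52 to 14.7, median 8.15 in both arrays), which were used without further scaling. Probe sets were named through the platform annotation, and the 1621 with several symbols and 12147 with none were not named.

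A probe set was above background when it exceeded the 95th percentile of olfactory receptor probe sets in its array. Log2 ratios are ND αCD4 minus isotype control, and the size rule was 1.5-fold. A gene above background in 1 array has a bound, set against the background of the other. Marker genes were represented by the probe set with the highest mean. All 10 members are named, beside listed markers and *Ighm*, the last chosen after its values were seen. Members, lists and rules were chosen with earlier results of these data known. The counting was tested on simulated data. Alternatives were other backgrounds, filters, scalings (median, lowess with fraction 0.3 and 3 iterations, quantile), a floor, 1 value per gene and a 2-fold rule. The precision is limited by having 1 array per condition. The software was matplotlib 3.10.9, statsmodels 0.14.6, pandas 2.3.3, numpy 2.4.6 and Python 3.11.15.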

Additional observations from a re-analysis of the deposited data

How the results depend on the processing

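Of the 10 segment probe sets, 7 or 8 were above background under each alternative, except that only 2 exceeded the highest olfactory receptor probe set, *Trav13-5* and the second of *Trav14-1*, both in the ND αCD4 array only. At the 99th percentile *Trdv2-2* was lost. No segment reached 1.5-fold in either direction under the alternatives run for that count, which did not include the highest olfactory receptor or the mean of probe sets. The median log2 ratio ran from 0.052, with 1 probe set per gene, to 0.16, at the 99th percentile. Of 40 log2 ratios under the other scalings and a floor, 39 kept their sign and moved by less than 0.093. The exception was *Trav12-2*, at -0.041 when floored, since both arrays are then set to background. *Trav7d-4* took the same value when floored and kept its sign only because its own log2 ratio, -0.10, was below 0. Part of this count was fixed in advance. The floor leaves probe sets above background in both arrays unchanged, and median centring shifts every log2 ratio by the same -0.0019. *Trgv1* stayed between 0.55 and 0.56. No paired analysis was possible because each condition has 1 array. For the same reason no array could be left out, and signals near background limit what can be said of *Trdv2-2*.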
